A study of Mus musculus with 2 samples.

Results

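A set of 10 genes for receptors that steer white blood cells between blood, marrow and lymphoid tissue was described in splenic cells of mice labelled low or high in vitamin B12. The set was Cxcr2, Cxcr4, Cxcr3, Cxcr5, Ccr1, Ccr2, Ccr7, Cx3cr1, S1pr1 and S1pr5, 10 of the 32285 genes counted, and they were picked by symbol. The data were single-cell 3′ RNA counts of viably frozen spleen cells that had been sorted for CD45.2, a pan-leukocyte marker, and CD11b, the integrin chain encoded by Itgam. There was 1 library with the low-B12 label and 1 with the high-B12 label. The series title names Tet2-deficient hematopoiesis, but no source used here gives the genotype, strain, B12 dose, duration, age or number of mice of either library. With 1 library per label there is no test between the labels: every interval below is a 95% interval for counting error only, and it holds nothing of the variation between animals. The intervals of levels and ratios count each UMI by itself, so they also leave out the spread between cells.

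Chemokine receptors and sphingosine 1-phosphate receptors pass through the membrane repeatedly and signal through G proteins of the Gi family. Chemokines made by stroma and inflamed tissue pull cells in or hold them, as CXCL12 does through CXCR4, whereas sphingosine 1-phosphate is high in blood and lymph and draws cells out of tissue. In the spleen, CXCR5 and CCR7 place lymphocytes and dendritic cells in the white pulp, CCR2 and CX3CR1 serve monocytes, and CXCR2 and CCR1 answer inflammatory chemokines on neutrophils.

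Cells were grouped by fixed marker counts, by the first rule that a barcode met. Neutrophils had at least 5% of their UMIs (unique molecular identifiers, each standing for 1 captured RNA) from S100a8 and S100a9, the calprotectin genes. They were called granule-rich where Camp, Ngp and Ltf made at least 1% of UMIs and granule-poor otherwise. B cells (at least 3 UMIs of Cd79a and Cd79b), NK cells (2 of Ncr1 and Klrb1c), conventional dendritic cells or cDC (3 of Cd209a, Clec10a and Flt3) and monocytes (2 of Csf1r) followed. The low-B12 library held 6510 cells and the high-B12 library 6748, with 48884220 and 46994991 UMIs in all droplets, and 4 cell barcodes occurred in both. Granule-poor neutrophils were 10.4% and 28.6% of cells and B cells 28.5% and 9.97%, low B12 first here and throughout. On the CPM scale explained below, 8 NK genes summed to 12964 and 15139 in NK cells and to 198 and 221 in B cells. The 8 B cell genes summed to 11279 and 10849.6 CPM in B cells and to 120.2 and 88.0 CPM in NK cells. Both lists include genes of the class rule, so part of this follows from the rule. Itgam was present in all classes (136 and 111 CPM in B cells). The 5 neutrophil progenitor genes summed to 925 and 5.54 CPM in granule-poor neutrophils, with a median of 0 UMIs per cell in both libraries, and their part in the results was not tested. Scrublet, which scores barcodes by their likeness to simulated mixtures, called 7.82% and 5.13% of cells doublets. They were kept in the values below unless it is said otherwise, and 35.1% and 28.8% of cDC also met the rule of another class. Of the monocytes, 266 of 1264 and 228 of 842 were at the minimum of 2 UMIs.

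RefSeq tables held a promoter window for 7 of the 10 genes. The 250 bases before the transcription start are shown for Cxcr4 and S1pr5, the members past 1.5-fold lower in monocytes of the high-B12 library, and for Cxcr2 and Ccr1, whose levels ran most closely together over the classes. Capitals mark matches on either strand to the PU.1 core AGGAAG, the T-box core AGGTGT or the glucocorticoid receptor half-site AGAACA. The C/EBP half-site TTGCNNAA and the hypoxia response core ACGTG were also searched and did not match in these 4 windows.
Cxcr4 (GRCm38.p6, chr1:128592300-128592549, minus strand): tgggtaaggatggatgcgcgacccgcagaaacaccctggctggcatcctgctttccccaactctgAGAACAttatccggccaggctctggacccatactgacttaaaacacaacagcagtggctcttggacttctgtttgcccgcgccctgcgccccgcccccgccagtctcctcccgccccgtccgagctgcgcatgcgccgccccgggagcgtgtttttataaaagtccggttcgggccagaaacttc
S1pr5 (GRCm38.p6, chr9:21248444-21248693, minus strand): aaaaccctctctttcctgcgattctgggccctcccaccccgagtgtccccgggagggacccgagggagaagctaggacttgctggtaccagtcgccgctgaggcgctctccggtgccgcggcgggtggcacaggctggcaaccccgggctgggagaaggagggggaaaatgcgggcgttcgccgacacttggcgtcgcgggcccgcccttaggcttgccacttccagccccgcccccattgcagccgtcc
Cxcr2 (GRCm38.p6, chr1:74153744-74153993, plus strand): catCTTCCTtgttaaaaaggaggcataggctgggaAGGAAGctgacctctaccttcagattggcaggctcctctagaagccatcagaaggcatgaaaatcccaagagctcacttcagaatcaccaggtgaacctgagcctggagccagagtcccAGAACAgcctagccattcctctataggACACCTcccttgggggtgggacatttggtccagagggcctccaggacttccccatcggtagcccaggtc
Ccr1 (GRCm38.p6, chr9:123968693-123968942, minus strand): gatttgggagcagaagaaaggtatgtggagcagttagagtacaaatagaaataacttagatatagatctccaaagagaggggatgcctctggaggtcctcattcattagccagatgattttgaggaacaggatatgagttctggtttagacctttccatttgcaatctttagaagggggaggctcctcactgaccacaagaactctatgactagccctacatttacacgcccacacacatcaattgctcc
The Cxcr4 window held 1 glucocorticoid receptor half-site, which 16.1% of all 32851 windows of this length hold. The Cxcr2 window held 2 PU.1 cores, 1 T-box core and 1 glucocorticoid receptor half-site, against 29.5%, 11.8% and 16.1% of all windows with at least 1. None of the 5 motifs matched in the S1pr5 and Ccr1 windows, and C/EBP and hypoxia motifs occur in 9.56% and 16.6% of all windows. The windows of S1pr5 and Cxcr4 were rich in G and C, at 69.2% and 61.2%, that of Cxcr2 was at 54.4% and that of Ccr1 at 43.6%, beside a median of 52.4%. Such matches describe letters and show no binding.

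The class with the highest level was the same in both libraries for all 10 receptors. Levels are given as CPM, the UMIs of a gene scaled to the total UMIs of its class, so they compare classes and libraries for 1 gene and not genes with each other. Cxcr2, Ccr1 and Cxcr4 were highest in granule-poor neutrophils, Ccr2 and Cx3cr1 in monocytes, Cxcr5, Ccr7 and S1pr1 in B cells, and Cxcr3 and S1pr5 in NK cells. Adjacent ranks with overlapping intervals, such as Cxcr4 in monocytes and granule-rich neutrophils of the low-B12 library, were not set apart, nor was Cxcr3 in NK and B cells there.

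Over all cells of a library some differences were larger than within classes. Cxcr2 stood at 92.0 and 236 CPM over all cells, Ccr1 at 64.0 and 171 CPM, S1pr1 at 42.8 and 19.5 CPM and Ccr7 at 24.3 and 6.95 CPM. The classes that carry them did not show such gaps for Cxcr2, Ccr1 and S1pr1: Cxcr2 had a ratio of 2.57 over all cells and 0.940 in granule-poor neutrophils, and S1pr1 had 0.457 over all cells and 1.05 in B cells. The mix of classes and the levels within them both enter a value over all cells, so the values below are given within classes.

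**Figure D1:**
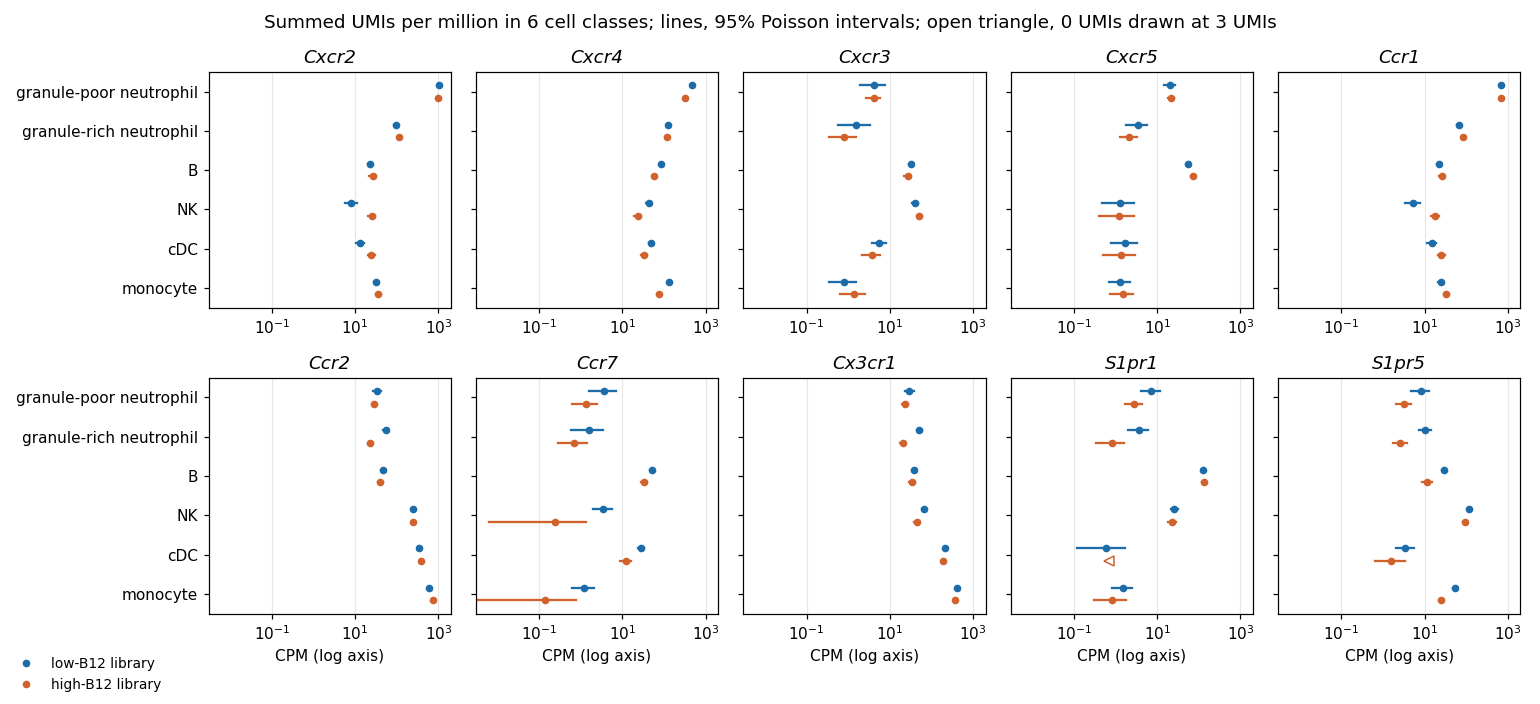
Level of each receptor gene (horizontal log axis, CPM) in 6 cell classes (vertical) in the low-B12 (blue) and high-B12 (orange) library, with 95% Poisson intervals. Cxcr2 stood at 1048 and 985 CPM in granule-poor neutrophils, and S1pr1 in cDC had 0 UMIs in the high-B12 library (open triangle at 3 UMIs).

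Of the 60 combinations of gene and class, 42 had at least 50 UMIs in both libraries together and were compared. Of these, 4 (9.52%) were higher by at least 1.5-fold under high B12 and 9 (21.4%) lower by as much. Over all genes measured in the same classes, 2.45% of 56018 gene and class combinations were that much higher and 9.38% that much lower. The median log2 ratio of all measured genes lay between -0.27 in granule-rich neutrophils and -0.07 in monocytes, so a ratio slightly below 1 is near the middle of all genes. The 4 higher combinations were Cxcr2 and Ccr1 in NK cells and in cDC. The 9 lower ones were Cxcr4 in NK cells and monocytes, S1pr5 in granule-rich neutrophils, B cells and monocytes, Ccr7 in B cells and cDC, and Ccr2 and Cx3cr1 in granule-rich neutrophils. With doublet calls left out, 36 combinations were measured, none of the 4 higher ones was still called, and 8 of the 9 lower ones were. Of the higher ones, Cxcr2 and Ccr1 in NK cells and Cxcr2 in cDC had 6, 8 and 31 UMIs left, too few for a call. The ratios of the NK pairs were then 5.12 and 7.16, Cxcr2 in cDC was at 2.33 and 4.90 CPM, and Ccr1 in cDC had a ratio of 1.25. The remaining lower one, S1pr5 in granule-rich neutrophils, had 17 UMIs left at a ratio of 0.478. Another 3 combinations were then higher, Cxcr2 and Ccr1 in monocytes and Cx3cr1 in B cells, and Cxcr4 in cDC was lower, beside 2.80% higher and 7.51% lower over all genes.

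By class, none of 6 measured members was past 1.5-fold in granule-poor neutrophils, where 3.03% of all measured genes were higher and 10.8% lower. In granule-rich neutrophils 3 of 6 members were lower and none higher, beside 19.5% and 1.55% of all genes. In B cells 2 of 10 were lower and none higher, beside 8.83% and 2.91%. NK cells had 2 of 8 higher and 1 lower, beside 2.20% and 7.50%, and cDC had 2 of 6 higher and 1 lower, beside 2.22% and 5.97%. Monocytes had 2 of 6 lower and none higher, beside 5.26% and 2.75%. Cells outside the classes had 2 of 10 higher (Cxcr2 and Ccr1) and 2 lower (Ccr7 and S1pr5), beside 7.04% and 11.1%. The members were chosen with earlier results of these data known, so these counts describe them and carry no test.

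**Figure D2:**
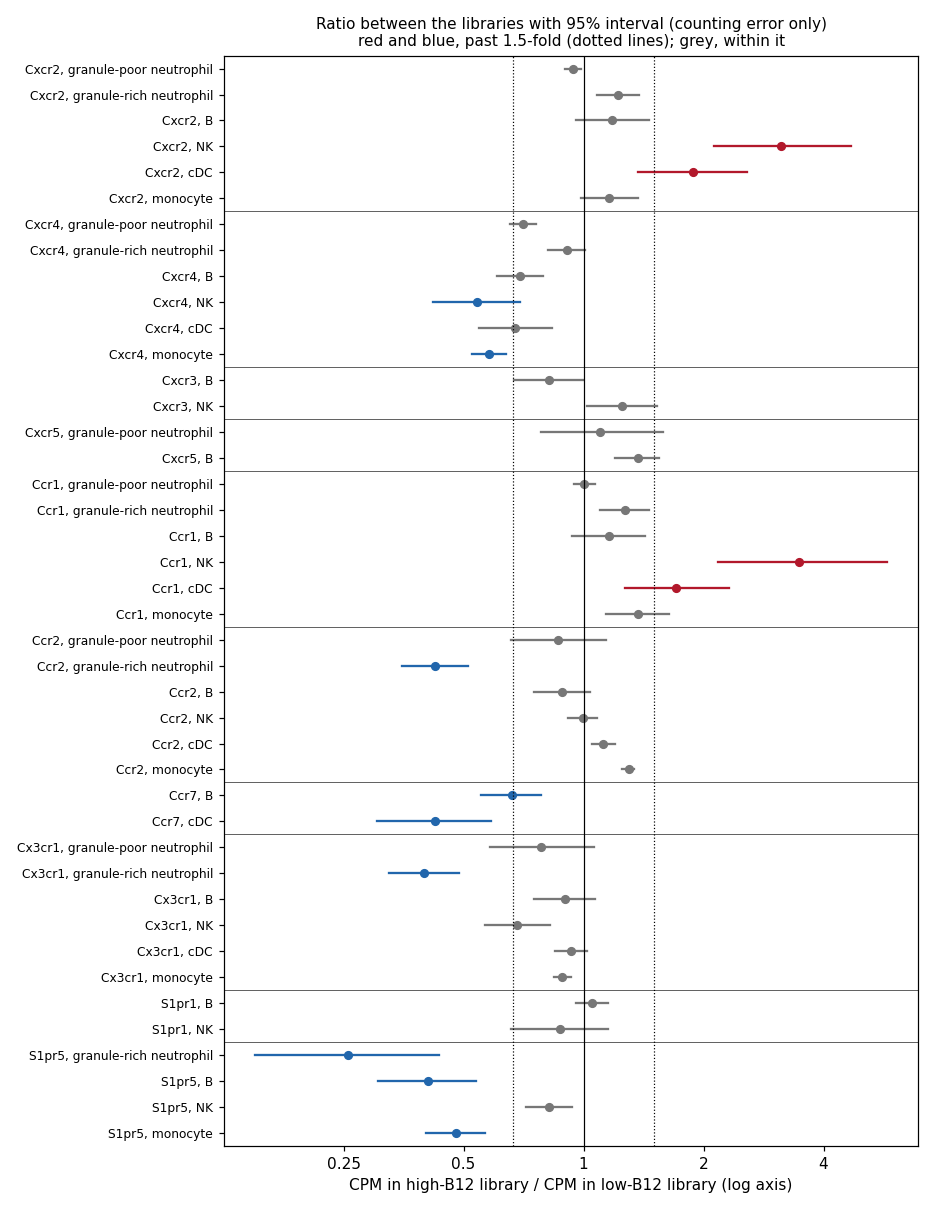
Ratio of CPM in the high-B12 over the low-B12 library (horizontal log axis) for the 42 measured gene and class combinations, with 95% intervals for counting error. The 4 combinations at or above 1.5-fold are red, the 9 at or below it blue, and the 6 Cxcr4 ratios all lie below 1.

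Cxcr2 (chromosome 1, 74153989 to 74161246) encodes the receptor for CXCL1, CXCL2 and other neutrophil-attracting chemokines, which draws neutrophils out of the marrow. It stood at 1048 CPM (interval 1006 to 1091) and 985 CPM (962 to 1009) in granule-poor neutrophils, and 91.0% and 92.4% of these cells had at least 1 Cxcr2 UMI, or 45.1% and 40.4% with every cell thinned to 500 UMIs. In NK cells, which do not rely on it, the share was 1.48% and 2.96% at median depths of 4216.5 and 4478 UMIs, against 2710 and 3085 in these neutrophils. In granule-rich neutrophils, the less mature form, it stood at 94.1 and 115 CPM. The step between these neutrophil classes was 11.1-fold and 8.57-fold, with intervals that did not overlap, while the ratio between the libraries was 0.940 (0.897 to 0.986) in granule-poor and 1.22 (1.08 to 1.38) in granule-rich cells. Scaled to the median gene ratio, the granule-poor value was 1.05, on the other side of 1.

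Ccr1 (chromosome 9, 123962124 to 123968692) encodes a receptor for CCL3, CCL5 and related inflammatory chemokines. Its level in granule-poor neutrophils was 673 CPM (639 to 708) and 676 CPM (656 to 695), a ratio of 1.00 (0.947 to 1.07). In granule-rich neutrophils it was 66.8 and 84.7 CPM, a ratio of 1.27 (1.10 to 1.46). Among 10367 genes compared, Cxcr2 was the gene whose pattern over 6 classes and 2 libraries was most like that of Ccr1 (Pearson r = 0.997 of log2 CPM with 10 added, 12 values that share libraries and class rules). Il1r2, the decoy receptor for interleukin-1, and Slc40a1, the iron exporter, came next for Ccr1, at 0.996 and 0.993.

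In NK cells Cxcr2 and Ccr1 lay mostly in barcodes called doublets. There Cxcr2 had 37 and 104 UMIs, 7.99 and 25.0 CPM, a ratio of 3.13 (2.13 to 4.69). The 10 cells with most held 89.2% and 69.2% of these UMIs. Once doublet calls were left out, 1 and 5 Cxcr2 UMIs were left in 882 and 804 NK cells. Ccr1 in NK cells likewise went from 24 and 75 UMIs (5.18 and 18.0 CPM) to 1 and 7. The summed level of the 9 neutrophil marker genes in NK cells was 684 and 1916 CPM, with none at 0.

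In cDC too, both levels were lower without doublet calls. Cxcr2 stood at 13.2 and 24.7 CPM and Ccr1 at 14.7 and 25.2 CPM, ratios of 1.88 and 1.71, and without doublet calls at 2.33 and 4.90 CPM and at 8.05 and 10.0 CPM. Their neutrophil marker genes summed to 1367 and 2286 CPM. In B cells the doublet-free Cxcr2 level was 1.62 and 3.63 CPM, against 22.3 and 26.4 CPM with all cells. Monocytes kept more, 11.6 and 19.2 CPM for Cxcr2 and 14.2 and 22.6 CPM for Ccr1 without doublet calls, ratios of 1.66 and 1.59. Their neutrophil marker genes summed to 2220.2 and 2928 CPM with all cells. At the ratios to calprotectin in granule-poor neutrophils, all monocytes' calprotectin UMIs would go with 15.6 and 15.4 CPM of Cxcr2. For Ccr1 this was 10.0 and 10.5 CPM. At the ratios in droplets with at most 100 UMIs it was 2.55 and 3.10 CPM of Cxcr2 and 2.29 and 2.77 CPM of Ccr1. Whether monocytes make this RNA was not tested.

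**Figure D3:**
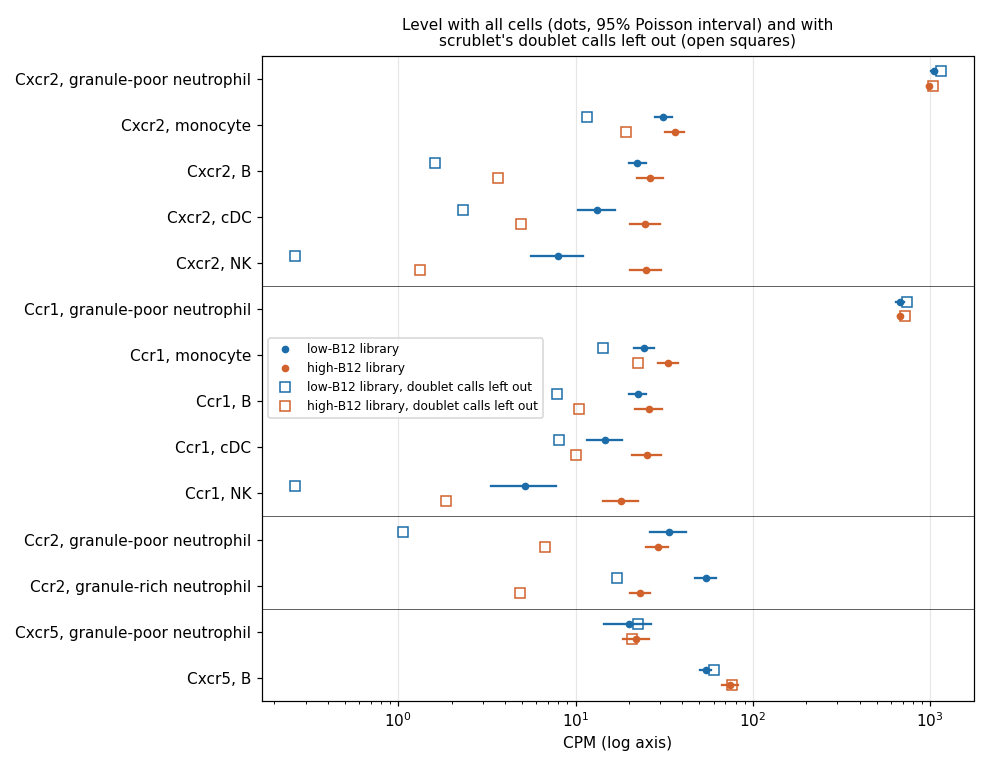
Levels (horizontal log axis, CPM) of 4 receptor genes with all cells (dots with 95% Poisson intervals) and with doublet calls left out (open squares), in the low-B12 (blue) and high-B12 (orange) library. Cxcr2 in NK cells moved from 7.99 to 0.260 and from 25.0 to 1.33 CPM, while Cxcr5 in granule-poor neutrophils was 19.9 and 22.0 CPM with all cells and 22.4 and 20.8 CPM without doublet calls.

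Cxcr4 (chromosome 1, 128588199 to 128592293) encodes the CXCL12 receptor that holds neutrophils, progenitors and B cells in marrow and returns aged neutrophils to it. Its ratio was below 1 in all 6 classes, except that in granule-rich neutrophils it was 1.09 when scaled to the median gene ratio and 1.10 after thinning. Granule-poor neutrophils, which carried the most, had 460.0 CPM (432 to 489) and 324 CPM (311 to 338), 1.42-fold lower. That ratio was 0.705 (0.654 to 0.760), and 0.787 when scaled to the median gene ratio. Of these cells, 67.2% and 60.0% had a UMI, or 20.9% and 16.1% after thinning. Granule-rich neutrophils had 127 and 115 CPM, and this interval of the ratio (0.814 to 1.01) included 1.

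The Cxcr4 difference past 1.5-fold was in monocytes and NK cells. Monocytes had 129.6 CPM (123 to 137) and 75.1 CPM (69.0 to 81.6), a ratio of 0.579 (0.524 to 0.640), and the share of monocytes with a UMI was 55.1% and 39.8%, or 7.12% and 4.39% after thinning. NK cells had 42.7 and 23.1 CPM, a ratio of 0.540 (0.419 to 0.693). B cells, at 82.6 and 57.3 CPM, and cDC, at 48.5 and 32.7 CPM, had ratios of 0.693 (0.606 to 0.790) and 0.674 (0.546 to 0.831). Without doublet calls the ratio was 0.578 in monocytes and 0.467 in NK cells, so it was as far from 1 there.

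Cxcr4 RNA also occurred outside cells. In droplets with at most 100 UMIs, which hold free RNA, it stood at 120.1 and 127 CPM. At its ratio there to calprotectin, the calprotectin UMIs of monocytes would go with 6.07 and 3.40 CPM of Cxcr4, and those of NK cells with 1.98 and 2.32 CPM. Rgs14, a regulator of G protein signalling, had the pattern most like that of Cxcr4 over the 12 values (r = 0.982), followed by Litaf (0.965) and Ppp1r2 (0.962).

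Monocytes were then split by genes outside the receptor set. Cells with at least 2 UMIs of Ly6c2, Vcan and F13a1 and none of Ace, Treml4 and Cd300e formed a Ly6c2 side, after genes of classical monocytes, and the reverse formed an Ace side, after genes of patrolling monocytes. The Ly6c2 side was 29.5% and 41.3% of monocytes, the Ace side 31.8% and 16.4%.

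Ccr2 (chromosome 9, 124101950 to 124113557) encodes the CCL2 receptor through which classical monocytes leave the marrow. It stood at 950.0 and 1074 CPM on the Ly6c2 side and at 118 and 204 CPM on the Ace side, 8.02-fold (7.10 to 9.09) and 5.27-fold (4.55 to 6.14) apart. Over all monocytes it was at 591 CPM (576 to 606) and 765 CPM (746 to 786), a ratio of 1.30 (1.25 to 1.34). Within the sides the ratio between the libraries was 1.13 (1.08 to 1.19) and 1.72 (1.42 to 2.08), and 1.04 in the monocytes on neither side. With these 3 groups weighted alike in both libraries, a weighting added after the data were seen, it was 1.14.

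Cx3cr1 (chromosome 9, 119901616 to 120069879) encodes the fractalkine receptor, which supports patrolling monocytes. It was spread over both sides, at 347 and 336 CPM on the Ly6c2 side and 496 and 462 CPM on the Ace side. Over all monocytes it was at 421 CPM (408 to 433) and 372 CPM (358 to 386), with a UMI in 84.2% and 80.5% of cells, or 17.2% and 16.7% after thinning. The ratio of 0.885 (0.843 to 0.928) became 0.924 with the 3 groups weighted alike.

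S1pr5 (chromosome 9, 21242912 to 21248443) encodes the sphingosine 1-phosphate receptor with which NK cells and patrolling monocytes leave the marrow. In monocytes it was highest on the Ace side, at 129 CPM (115 to 144) and 78.1 CPM (61.1 to 98.3), and stood at 42.9 and 25.8 CPM in monocytes on neither side and at 12.4 and 10.5 CPM on the Ly6c2 side. The Ace side held 306 of 536 and 72 of 186 of its monocyte UMIs. Over all monocytes its level was 52.6 and 25.2 CPM, a 2.09-fold difference, and with the 3 groups weighted alike it was 61.4 and 38.1 CPM, a 1.61-fold difference. The share of monocytes with a UMI was 28.2% and 15.1%. After thinning every cell to 500 UMIs it was 1.98% and 2.38%, from 26 UMIs in the low-B12 library, and the ratio then turned to 1.15. Near-empty droplets held S1pr5 at 34.5 and 25.2 CPM. At its ratio there to calprotectin, the calprotectin UMIs of monocytes would go with 1.74 and 0.674 CPM of S1pr5.

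Cxcr4 differed between the libraries on both sides of the monocytes. The Ace side had 199.8 CPM (182 to 219) and 86.7 CPM (68.8 to 108), a ratio of 0.434 (0.338 to 0.551). The Ly6c2 side had 87.3 and 66.5 CPM, a ratio of 0.762 (0.639 to 0.908), and monocytes on neither side had 125 and 81.2 CPM. With the 3 groups weighted alike the ratio was 0.569.

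In cDC, Ccr2 stood at 339 and 381 CPM and Cx3cr1 at 208 and 194 CPM, with ratios of 1.12 (1.05 to 1.20) and 0.931 (0.850 to 1.02). Their patterns over the 12 values correlated at r = 0.91 with each other. Qpct (r = 0.993) and Sestd1 (r = 0.992) were the genes most like Ccr2 and Cx3cr1.

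Ccr2 and Cx3cr1 were low in neutrophils and concentrated in few cells. In granule-rich neutrophils Ccr2 stood at 54.3 and 23.0 CPM, a ratio of 0.424, with 65.6% and 55.2% of its UMIs in 10 cells. Without doublet calls it was at 17.2 and 4.83 CPM, and Cx3cr1, at 51.2 and 20.3 CPM with all cells, was at 16.5 and 4.24 CPM. Doublet calls made up 16.3% and 10.9% of granule-rich neutrophils. In granule-poor neutrophils Ccr2 had 74 and 199 UMIs with all cells and 2 and 42 without doublet calls.

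**Figure D4:**
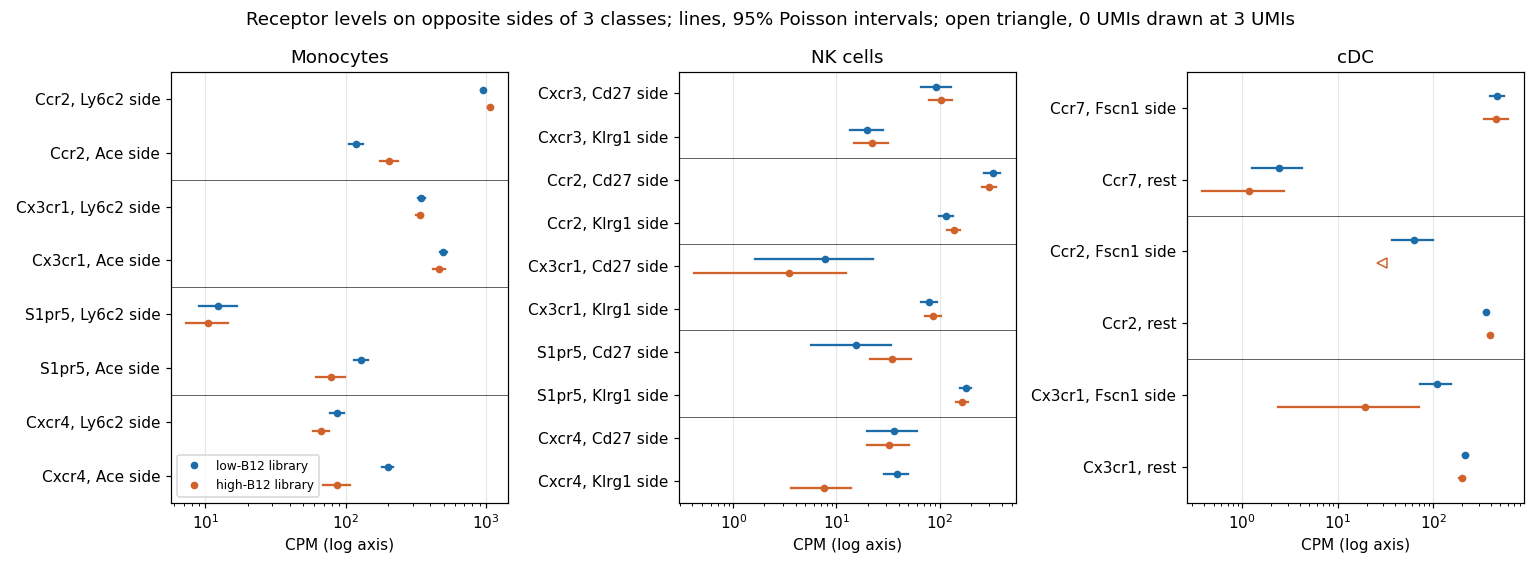
Levels (horizontal log axis, CPM) on opposite sides of monocytes, NK cells and cDC, split by genes outside the receptor set, in the low-B12 (blue) and high-B12 (orange) library with 95% Poisson intervals. Ccr2 was at 950.0 and 1074 CPM on the Ly6c2 side and 118 and 204 CPM on the Ace side of monocytes, and Ccr7 at 469 and 457 CPM in Fscn1-positive cDC.

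NK cells carried Ccr2, S1pr5, Cx3cr1, Cxcr3 and some S1pr1, and most of these differed between NK subsets. Cells with a UMI of Cd27, Tcf7 or Emb and none of Klrg1, Cma1 and Zeb2 formed a Cd27 side, after genes of less mature NK cells (82 and 108 cells). Those with at least 2 UMIs of the latter genes and none of the former made a Klrg1 side (410 and 336 cells). S1pr5 was at 15.6 and 34.4 CPM on the Cd27 side and at 179 and 164 CPM on the Klrg1 side, and Cx3cr1 at 7.78 and 3.44 CPM against 79.2 and 86.8 CPM. Cxcr3, the receptor for the interferon-induced chemokines CXCL9 and CXCL10, ran the other way, at 93.3 and 103 CPM against 19.8 and 21.9 CPM. Ccr2 was also higher on the Cd27 side, 2.81-fold (2.22 to 3.55) and 2.20-fold (1.78 to 2.72).

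Over all NK cells, S1pr5 stood at 114 CPM (105 to 124) and 93.5 CPM (84.5 to 103), a ratio of 0.819 (0.717 to 0.935), with a UMI in 39.4% and 34.0% of cells. In cDC, the class with the lowest level, 2.71% and 1.24% of cells had an S1pr5 UMI, at median depths of 10189 and 10566 UMIs against 4216.5 and 4478 in NK cells. After thinning, NK cells had 6.87% and 6.28%. With all cells, Ccr2 was equal within counting error, at 249.8 and 248 CPM (ratio 0.995, 0.914 to 1.08). Without doublet calls it was at 214 and 239.6 CPM, a ratio of 1.12, which lies outside that interval. Cxcr3 (chromosome X, 101731535 to 101734269) stood at 40.6 and 50.7 CPM, a ratio of 1.25 (1.02 to 1.53). Cx3cr1 stood at 65.2 and 44.5 CPM, a ratio of 0.682, and at 37.1 and 37.7 CPM, a ratio of 1.02, without doublet calls. On the Klrg1 side Cxcr4 had 60 and 10 UMIs, 38.3 and 7.55 CPM, a ratio of 0.197 (0.0899 to 0.388). It was at 46.3 and 29.8 CPM in NK cells on neither side, a ratio of 0.643 (0.470 to 0.873), and had 14 and 19 UMIs on the Cd27 side, too few for a comparison.

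Among cDC, Ccr7 (chromosome 11, 99144196 to 99155077), the receptor that takes activated dendritic cells and naive lymphocytes to T cell zones, was held by a small subset. The subset was taken as cDC with at least 2 UMIs of Fscn1, Ccl22 and Cacnb3, genes of mature dendritic cells. It numbered 30 cells (6.26% of cDC, 4.27 to 8.82) and 11 cells (2.73%, 1.37 to 4.83), shares with overlapping intervals. Ccr7 stood at 469 CPM (393 to 555) and 457 CPM (335 to 607) in this subset and at 2.43 and 1.17 CPM in the other cDC. The subset held 135 of the 147 and 47 of the 52 Ccr7 UMIs of cDC, so the values over all cDC rest on few cells. Over all cDC it was at 28.1 and 11.9 CPM, a ratio of 0.424 (0.303 to 0.585), whereas within the Fscn1 subset the ratio was 0.973 (0.683 to 1.37). The same subset had 62.5 CPM of Ccr2 in the low-B12 library, against 355 CPM in the other cDC. It had no Ccr2 UMI in the high-B12 library, where the interval of a count of 0 reaches 35.8 CPM.

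With all cells counted, B cells had at least 50 UMIs of all 10 receptors. Most B cell UMIs of Cxcr2, Ccr1, Ccr2 and Cx3cr1 lay in doublet calls. Without these calls Cxcr2 had 17 and 15 UMIs, too few for a comparison. Ccr2 went from 46.1 and 40.7 CPM to 6.10 and 7.74 CPM, and Cx3cr1 from 38.1 and 34.3 CPM to 5.43 and 11.6 CPM. Ccr1 went from 22.4 and 26.0 CPM to 7.91 and 10.4 CPM. S1pr1 (chromosome 3, 115710433 to 115715072), the main receptor for lymphocyte egress, stood at 124 CPM (118 to 130.0) and 129.9 CPM (120.0 to 140.3), with a UMI in 51.9% and 50.8% of cells, or 6.58% and 6.09% after thinning. In cDC it had 3 UMIs and 0 UMIs, and the interval of the count of 0 reaches 0.844 CPM. Cxcr5 (chromosome 9, 44511787 to 44561877), the CXCL13 receptor of follicles, stood at 54.1 CPM (50.2 to 58.1) and 74.0 CPM (66.6 to 82.0), a ratio of 1.37 (1.20 to 1.55). Ccr7 stood at 50.1 and 33.1 CPM, a ratio of 0.660 (0.553 to 0.783), and Cxcr3 at 32.6 and 26.6 CPM, a ratio of 0.817 (0.668 to 0.995). Near-empty droplets held Ccr7 at 32.8 and 4.93 CPM. At its ratio there to calprotectin, the calprotectin UMIs of B cells would go with 1.37 and 0.135 CPM of Ccr7. S1pr5 stood at 28.7 CPM (25.9 to 31.7) and 11.7 CPM (8.88 to 15.1), 2.45-fold lower, with a UMI in 17.0% and 7.13% of cells, or 1.35% and 0.892% after thinning. The S1pr1 ratio of 1.05 (0.956 to 1.15) included 1, and the S1pr5 ratio of 0.407 (0.304 to 0.538) did not.

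Most B cells of the sort, 66.2% and 63.0%, had at least 2 UMIs of Zbtb32, Bhlhe41 and Sox5, transcription factor genes with known expression in B1 cells. This Zbtb32 subset is named by its genes only, and whether its cells are B1 cells was not tested. In the subset, S1pr5 stood at 27.7 and 7.17 CPM, a ratio of 0.259 (0.165 to 0.391). There Cxcr4 had a ratio of 0.538 (0.449 to 0.641), Ccr7 of 0.596 (0.481 to 0.735) and Cxcr5 of 1.56 (1.35 to 1.81). In B cells outside that subset with at least 2 UMIs of Fcer2a and Ighd and none of Cr2, Cd1d1 and Cd9 (203 and 89 cells), S1pr5 was at 30.6 and 29.6 CPM (ratio 0.968, 0.482 to 1.84). There Cxcr4 was at 89.3 and 90.9 CPM (1.02, 0.697 to 1.47) and Ccr7 at 49.3 and 50.8 CPM (1.03, 0.612 to 1.68). B cells with at least 2 UMIs of Cr2, Cd1d1 and Cd9 and none of Fcer2a, which overlap the Zbtb32 subset, had 88 and 9 S1pr5 UMIs (ratio of CPM 0.294, 0.130 to 0.583) and Ccr7 at 41.4 and 19.8 CPM (0.478, 0.286 to 0.763). The difference between the B cell subsets was not tested. Ebf1, a B lineage factor, was most like Cxcr5 over the 12 values (r = 0.940), B3gnt5 most like S1pr1 (0.992), and H2-Eb2 most like Ccr7 (0.992). For Cxcr3 and S1pr5 these were Cers4 (0.987) and Zmiz1os1 (0.956).

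Cxcr5 also appeared in granule-poor neutrophils. It had 44 UMIs (19.9 CPM, 14.5 to 26.8) and 151 UMIs (22.0 CPM, 18.6 to 25.8), in 5.15% and 5.44% of these cells. Monocytes had 1.28 and 1.49 CPM, with a UMI in 0.949% and 1.07% of cells that were deeper (median 7954.5 and 9175 UMIs against 2710 and 3085). After thinning the shares were 0.442% and 1.09% in these neutrophils and 0.158% and 0.119% in monocytes. Without doublet calls the granule-poor neutrophils had 42 and 129 UMIs, 22.4 and 20.8 CPM. At the ratio of Cxcr5 to Cd79a and Cd79b seen in B cells, the Cd79a and Cd79b UMIs of these neutrophils would go with 1.81 and 1.07 CPM of Cxcr5, and at the ratio in near-empty droplets (17.5 and 27.2 CPM of Cxcr5) with 1.83 and 3.54 CPM. Granule-rich neutrophils had 13 and 21 Cxcr5 UMIs, so Cxcr5, like Cxcr2, was higher in the granule-poor class.

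The genes around these receptors were described from lists set beside them. None of 26 genes for coupling and desensitisation (G proteins, receptor kinases, regulators of G protein signalling and actin-linked exchange factors) was 1.5-fold higher in any of the 6 classes. The lower ones numbered 2 of 26 in granule-poor and 6 in granule-rich neutrophils, 3 in B cells, 2 each in NK cells and cDC and 1 in monocytes. Of all measured genes, 10.8%, 19.5%, 8.83%, 7.50%, 5.97% and 5.26% were lower in these classes, in the same order. The median log2 ratio of the list was between -0.13 and -0.23 over the classes, where all measured genes had between -0.07 and -0.27. Grk3, a kinase that desensitises chemokine receptors, stood at 34.3 and 10.6 CPM in NK cells, and its relative Grk5 at 402 and 249.9 CPM in monocytes. Gnai2, the main Gi chain of leukocytes, differed little, such as 804 and 811 CPM in monocytes.

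Among 13 factors known to act on these receptors' expression or surface display, none was 1.5-fold higher in the 6 classes. Of 12 measured, 5 were lower in granule-poor and 7 in granule-rich neutrophils. In B cells 2 of 13 were lower, in NK cells 1 of 13, and in cDC and in monocytes 2 of 11. These counts stand beside the same 10.8%, 19.5%, 8.83%, 7.50%, 5.97% and 5.26% of all genes. The 7 in granule-rich neutrophils were Klf4, Foxo1, Cd69, Tbx21, Zeb2, Nr4a1 and Bach2. Doublet calls made up 16.3% and 10.9% of that class, and its 8 B cell marker genes summed to 506 and 92.5 CPM. What doublets add to the 7 was not tested. Tsc22d3, a glucocorticoid-induced gene, stood at 577 and 333 CPM in granule-poor neutrophils, at 259 and 139 CPM in monocytes and at 189 and 195 CPM in B cells. Tbx21, the T-box factor T-bet that drives S1pr5 in NK cells, stood at 395 and 331 CPM in NK cells and at 204 and 74.6 CPM in B cells, where Zeb2 was at 2069 and 1362 CPM. Klf2, which drives S1pr1, stood at 987 and 1164 CPM in B cells. Whether these factors bear on the receptors was not tested.

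Other receptors of the same families were sparse. Of 15 further chemokine receptor genes, between 1 and 5 were measured per class. Ccr6 stood at 43.0 and 44.0 CPM in B cells and Ccrl2 at 109 and 99.9 CPM in granule-poor neutrophils, and those past 1.5-fold included Ccr9 (higher) and Ackr2 (lower) in B cells and Ccrl2 (lower) in NK cells. Among 3 other sphingosine 1-phosphate receptors, S1pr4 was at 57.0 and 54.8 CPM in NK cells, and S1pr3 in B cells was at 25.2 and 8.47 CPM, the 1 past 1.5-fold. Of 9 genes for synthesis, breakdown and export of the lipid, 3 were measured in NK cells. Sgpl1, the lyase that destroys the lipid, was the 1 of these that was lower, at 61.3 and 37.5 CPM, beside 7.50% of all genes. It was also lower in granule-rich neutrophils, as were Sgpp1 in granule-poor neutrophils and Plpp1 in B cells.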

How the data were processed

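Both libraries of splenic CD45.2+CD11b+ cells were used, 1 labelled low B12 and 1 high B12, grouped by the labels' treatment field. For each library the deposited matrix gives unnormalised UMI counts for all droplets. Per the file headers the authors made these counts with Cell Ranger 4, whereas 2.1.1 is the version in the submitters' processing notes. Per the labels' protocol the kit was 10x 3′ v2. No source used here names the genome build or annotation of the counts, and gene positions are those of GENCODE M21 (GRCm38). Promoter sequences are from RefSeq (GRCm38.p6), for 7 of 10 members.

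A barcode was taken as a cell from 500 UMIs and 200 genes up, with mitochondrial genes making 10% of UMIs or less. Counts were summed per library and class and divided by the class total (CPM). Intervals are 95%: exact Poisson for levels, exact binomial (Clopper-Pearson) for shares, and exact conditional binomial for ratios. They cover counting error only. A combination needed 50 UMIs in both libraries together, and a fold of 1.5 was the call. Free RNA was read from droplets with at most 100 UMIs. Cells were thinned to 500 UMIs with seed 1. Likeness was Pearson's r of log2(CPM + 10) among genes with at least 200 UMIs, leaving out the class rule's genes and predicted genes. All 10 members are named, with the first of the 3 most alike genes of each (more for Cxcr4 and Ccr1), and in the lists the genes with most UMIs or past 1.5-fold. The interval and call steps were tested on simulated data. Python 3.11.15, numpy 2.4.6, pandas 2.3.3, scipy 1.17.1, scanpy 1.11.5 (scrublet) and matplotlib 3.10.9 were used. The members, lists and subset rules were chosen with earlier results of these data known. Alternatives covered scaling, cell weights, depth, doublets, cell filters, class rules and the UMI minimum. Of the further chemokine receptor genes, 1 is not reported here.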

Additional observations from a re-analysis of the deposited data

How the results depend on the processing

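No paired analysis was possible because each label has 1 library and the labels give no replicate numbers. Of the alternatives, thinning every cell to 500 UMIs left 16 combinations with enough UMIs, of which 1 was higher and 2 were lower, and S1pr5 in monocytes turned to a log2 ratio of 0.21 (26 low-B12 UMIs). The cause was not tested. A minimum of 20 UMIs in place of 50 gave 51 combinations with 16 lower and 4 higher. The added combinations rest on under 50 UMIs, such as 15 and 6 of S1pr1 in monocytes. Under the other 7 alternatives the higher count lay between 3 and 6 and the lower count between 7 and 12, beside 4 and 9. Shares over all genes were computed only for the main setting and with doublet calls left out. The other counts thus have no such share beside them. The doublet alternative, given with the results, kept none of the 4 higher combinations, 3 of them because under 50 UMIs were left (ratios of 5.12 and 7.16 for Cxcr2 and Ccr1 in NK cells, and 2.33 and 4.90 CPM for Cxcr2 in cDC) and Ccr1 in cDC at a ratio of 1.25. A minimum of 1000 UMIs moved none of the 42 ratios outside its interval. Ccr7 in B cells, at a log2 ratio of -0.60, ranged from -0.91 to -0.42 and was past 1.5-fold under 5 of 8 alternatives, Cxcr4 in monocytes from -0.79 to -0.61 and under 8 of 8, and Cxcr4 in NK cells from -1.10 to -0.64 and under 8 of 8. S1pr5 in B cells ranged from -1.31 to -0.60. Weighting the 3 groups of monocytes and of NK cells alike was added after the data were seen. Variation between animals cannot be told from 1 library per label, and UMI depth limits Cxcr3, Cxcr5, Ccr7 and S1pr1 outside the classes where they were high.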

Other observations

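Cells that met none of the class rules were 15.8% and 19.5% of the libraries, and the receptors divided them as well. Those with at least 2 UMIs of Csf3r, the receptor for granulocyte colony-stimulating factor, were 28.4% and 52.8% of them. Their Cxcr2 level was 728 and 852 CPM, their Ccr1 level 445 and 658 CPM, and Cxcr4 reached 485 and 484 CPM, with calprotectin at 17294 and 20819.9 CPM, under the 5% of UMIs that the neutrophil rule asks. Cxcr4 was thus equal within counting error here (ratio 0.998, 0.890 to 1.12), whereas granule-poor neutrophils had a ratio of 0.705 (0.654 to 0.760). The difference between these ratios was not tested. The calprotectin limit lay within a continuum, with 140 and 255 cells between 4% and 6% of UMIs.

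A T cell fraction was small, with 68 and 43 cells that had at least 2 UMIs of Cd3d, Cd3e and Cd3g. It carried S1pr1 at 114 and 141 CPM, Cxcr3 at 116 and 83.8 CPM and Ccr2 at 102 and 92.6 CPM. Among the other attractant receptors, complement receptor gene C5ar1 stood at 712 and 843 CPM in granule-poor neutrophils. Ltb4r1, for leukotriene B4, was higher in granule-rich neutrophils, at 263 and 329 CPM, than in granule-poor ones, at 58.5 and 68.2 CPM. Gpr183, which guides B cells and cDC by oxysterols, stood at 284 and 291 CPM in B cells and at 141 and 126 CPM in cDC.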
